A study of Mus musculus with 12 samples.

Results

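Alveolar type 1 cells are the flat epithelial cells that cover most of the gas-exchange surface of the lung, and the genes that mark them were described here in mouse lung tumors and in normal mouse lung. The group was defined by name as 10 genes, Ager, Hopx, Pdpn, Aqp5, Cav1, Cav2, Rtkn2, Clic5, Akap5 and Cldn18, and 8 of the 10 were matched by gene symbol among the 30399 genes of the expression table. Cav1 and Cav2 were not analysed here. The series holds poly-A RNA sequencing of 5 samples labelled normal lung and 7 labelled tumor, from a study of mouse lung cancer models made by nonviral CRISPR/Cas9 mutagenesis, in which a nuclease cuts chosen genes and faulty repair disables them. The labels give the tissue of each sample and no strain, age, sex, targeted gene or time after treatment, so the groups are known only as normal lung and tumor. Sample titles carry a number that tumors 3 and 4 share (159) and that tumors 5, 6 and 7 share (201), leaving 4 distinct numbers among the 7 tumors. Titles also hold a Spanish word for trachea in tumors 1 and 7 and for lung in tumors 3, 4, 5 and 6. Nothing in the labels says which samples came from separate animals, so the p-values below measure the spread between these samples only.

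Type 1 cells arise from the cuboidal, surfactant-making type 2 cells during repair, and from shared progenitors in development. They form the thin barrier between air and capillary with tight junctions, move water and salt across it, and lie on a basement membrane shared with the capillary endothelium. The factor Nkx2-1 and the Hippo pathway effectors Yap1 and Wwtr1 (Taz) are known to promote their identity. Several of their marker genes are also used elsewhere in the body: Hopx in heart muscle, Pdpn in lymphatic vessels and mesothelium, and Clic5 in endothelium.

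The deposited values are normalized counts, that is reads per gene divided by a size factor for each sample. Recovered depth ran from 11126432 to 17032234 reads for normal lung and from 13093843 to 24217633 for tumors, and 3 reads correspond to a normalized count of at most 4.85 in normal lung and 3.57 in tumors. In tumors 6 of 6 neuroendocrine markers were higher in limma, where 31.4% of all genes tested were higher. Their summed level was 23106 to 107256, against 167 to 197 for normal lung. Tumor 7 stood apart from the other tumors in markers of non-tumor tissue. Its summed level of 4 heart muscle markers was 32144, against 114 to 2040 in the other tumors and 76.2 to 3209 in normal lung. Its 6 leukocyte markers had a median of 124% of the normal lung mean, against 0.659% to 18.7% in the other tumors. They ranged from 5.02% to 170% in tumor 7, and their summed level there, 12557, was below the 82847 to 162534 of normal lung. Normal lung 3 was the shallowest library.

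All 8 measured type 1 genes fell in tumors, with log2 changes from -2.97 (Rtkn2) to -10.66 (Cldn18), and for each of them the highest tumor lay below the lowest normal lung. In limma fits over 23674 genes with Benjamini-Hochberg adjustment, 8 of 8 passed an adjusted p of 0.05 in the lower direction, where 30.1% of all genes tested were called lower and 31.4% higher. Groups did not overlap in 18.4% of all genes with tumor lower and in 20.1% with tumor higher. The median change of the 8 genes was -5.59, and that of all genes tested was 0.04. In edgeR on recovered reads the 8 genes were also lower, against 26.3% of all genes lower and 34.9% higher, and in DESeq2 likewise, against 26.1% lower and 32.3% higher. Summed over the 8 genes, the level ran from 81329 to 150122 normalized counts for normal lung and from 1698 to 4103 for tumors. In whole tissue, fewer type 1 cells and less RNA per cell cannot be told apart.

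**Figure D1:**
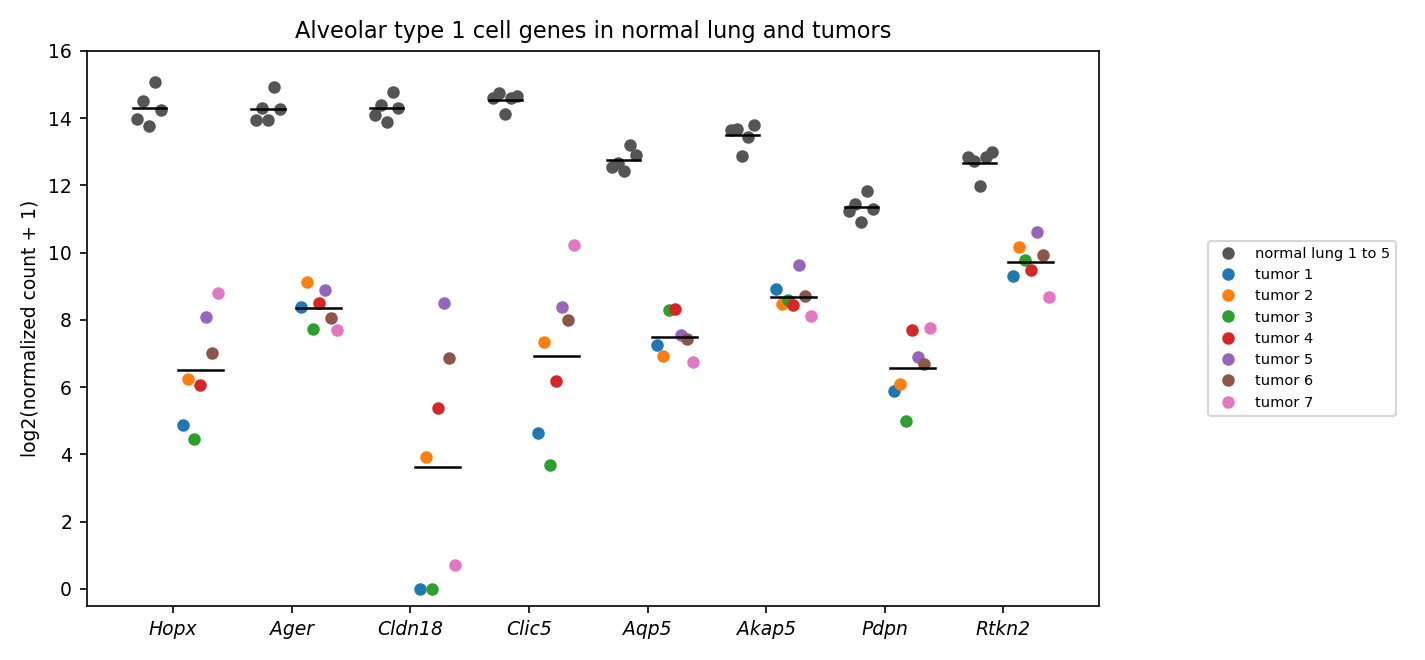
Log2(normalized count + 1) on the vertical axis for each of the 8 type 1 cell genes, with 5 normal lungs in grey and tumors 1 to 7 in color; black lines are group means and genes are ordered by their level per kilobase in normal lung. Every tumor lies below every normal lung for each gene, and the tumors spread most for Cldn18, Clic5 and Hopx.

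Ager (ENSMUSG00000015452) encodes RAGE, a receptor of the immunoglobulin family that is far more abundant in type 1 cells than elsewhere in the body and binds S100 proteins and Hmgb1. Normal lungs 1 to 5 stood at 15660, 20034, 15640, 31278 and 19633 normalized counts. The values were 333, 556, 212, 360, 470, 263 and 206 in tumors 1 to 7. The tumors kept a low level that varied little, between 1.01% and 2.72% of the normal lung mean. Ager fell by 5.93 on the log2 scale (SE 0.27, limma adjusted p = 1.37e-09), or 61.1-fold. Reads behind the tumor values numbered 214 to 581, and the annotated span of Ager overlaps no other gene of the table.

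Hopx (ENSMUSG00000059325) encodes a small homeodomain protein that does not bind DNA and acts as a transcriptional co-regulator. Normal lungs 1 to 5 had 15918, 23185, 13920, 34395 and 19305 normalized counts. Tumors 1 to 7 had 28.5, 75.1, 20.8, 66.5, 273, 129 and 446. Tumor 7 was the highest and tumor 3 the lowest, 21.4-fold apart, whereas the normal lungs spanned 2.47-fold. The change was -7.80 (SE 0.65, limma adjusted p = 2.96e-07), at rank 28 among the 23674 genes ordered from the most lowered. In edgeR on recovered reads it was -6.88.

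Pdpn (ENSMUSG00000028583), the mucin-type surface glycoprotein first known in the lung as T1-alpha, stood at 2405, 2812, 1938, 3652 and 2506 normalized counts across normal lungs 1 to 5. Tumors 1 to 7 had 58.2, 66.7, 30.7, 206, 117.3, 102 and 216. Tumors 4 and 7 were the highest, at 7.72% and 8.13% of the normal lung mean, and tumor 3 the lowest at 1.15%. Pdpn fell by 4.78 on the log2 scale (SE 0.42, limma adjusted p = 5.20e-07).

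Aqp5 (ENSMUSG00000044217), the water channel of the apical membrane of type 1 cells and of gland cells, ranged from 5467 through a median of 6498 to 9357 normalized counts among normal lungs. Tumors ranged from 106 in tumor 7 through a median of 171 to 319 in tumor 4. The order of the tumors was unlike that of Hopx and Pdpn, since tumors 3 and 4 were highest and nearly equal, at 313 and 319, and tumor 7 was lowest. The change was -5.24 (SE 0.28, limma adjusted p = 5.29e-09).

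Cldn18 (ENSMUSG00000032473) encodes a tight junction claudin of alveolar epithelium, in type 1 and type 2 cells, and of stomach. Across normal lungs 1 to 5 it stood at 17548, 21210, 15051, 28179 and 20293 normalized counts. Tumors 1 to 7 had 0, 14.3, 0, 40.4, 361, 116.6 and 0.640. Tumors 1 and 3 had 0 reads, which allows up to 1.90 and 2.97 normalized counts by the limit of 3 reads, and tumor 7 had 1 read, whereas tumors 5 and 6, which share its title number, had 446 and 173 reads. These limits cover counting error only. The fitted change of -10.66 (SE 1.36, limma adjusted p = 1.68e-05) depends on the pseudocount of 1, and was -11.79 with 0.1, -9.34 with 8 and -7.79 in edgeR. It was -10.06 without tumor 1 or without tumor 3, and -11.47 without tumor 5. The ratio of the group means was 269.

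Cldn18 has alternative starts in RefSeq (build GRCm38.p6, minus strand), used by lung and stomach forms, and a count per gene does not separate them. The 250 bases before each start are shown because Cldn18 was the most lowered member and the only one with a match to a searched motif. Capitals mark CAAGTG, the reverse complement of the NKX2-1 core CACTTG, inside the window at chr9:99710064-99710313. The match lies 98 bases before the start next to that window, which on the minus strand is the inner start. The window at chr9:99717268-99717517, before the outer start, has no match.
Cldn18, chr9:99710064-99710313: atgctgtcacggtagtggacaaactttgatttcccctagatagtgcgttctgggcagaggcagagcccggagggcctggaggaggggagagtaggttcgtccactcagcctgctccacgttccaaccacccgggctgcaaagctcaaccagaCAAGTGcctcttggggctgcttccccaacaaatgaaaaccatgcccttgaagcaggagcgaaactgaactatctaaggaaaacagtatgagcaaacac
Cldn18, chr9:99717268-99717517: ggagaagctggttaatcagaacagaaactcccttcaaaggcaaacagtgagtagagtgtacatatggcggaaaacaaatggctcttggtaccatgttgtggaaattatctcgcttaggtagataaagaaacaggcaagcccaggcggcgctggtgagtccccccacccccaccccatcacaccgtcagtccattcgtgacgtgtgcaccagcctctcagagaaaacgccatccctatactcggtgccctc
RefSeq promoter entries were found for 7 of the 8 genes, 9 entries in all, and none for Rtkn2. Of these 9 windows, searched on both strands, 1 held CACTTG or its complement, 0 held the TEAD core GGAATG and 0 the GATA core GATAAG. Over all 32851 windows of the same length the shares were 11.6%, 12.6% and 6.55%. A match describes letters, not a bound site, and the windows cover only the bases next to each start.

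Clic5 (ENSMUSG00000023959), a chloride intracellular channel family protein that ties membranes to the actin cytoskeleton through ezrin-type linkers, stood at 24968, 27237, 17751, 24825 and 25833 normalized counts across normal lungs 1 to 5. Tumors 1 to 7 had 24.1, 161, 11.9, 71.8, 336, 253 and 1198. Tumor 7 was 101-fold above tumor 3, and tumor 5 was the next highest, while the normal lungs spanned 1.53-fold. Clic5 fell by 7.62 on the log2 scale (SE 0.89, limma adjusted p = 7.31e-06) and by 6.04 in edgeR.

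Akap5 (ENSMUSG00000021057), a scaffold that anchors protein kinase A and calcineurin at membranes, ranged from 7529 through a median of 12710 to 14138 normalized counts among normal lungs. Tumors ranged from 275 in tumor 7 through a median of 388 to 791 in tumor 5. The spread of the tumors, with an SD of 0.48 log2 units, was the smallest among the 8 genes. The change was -4.79 (SE 0.24, limma adjusted p = 3.09e-09).

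Rtkn2 (ENSMUSG00000037846), a rhotekin family protein, was the least lowered. Normal lungs 1 to 5 had 7301, 6782, 4031, 7326 and 8126 normalized counts. Tumors 1 to 7 had 624.8, 1142, 873, 711, 1571, 976 and 410, or 6.11% to 23.4% of the normal lung mean. The lowest normal lung was still above the highest tumor. Rtkn2 fell by 2.97 on the log2 scale (SE 0.29, limma adjusted p = 1.41e-06), or 7.83-fold.

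Levels were compared between genes only after division by the summed length of the annotated exons of each gene. In normal lung Hopx was highest, at 14079 ± 5343 normalized counts per kilobase (SD, n = 5), and Ager next at 9551 ± 2992. These means differed by less than the spread of Hopx. All genes were measured in the same 5 lungs, so the SDs here include differences between lungs. They do not test the order of the genes within each lung. Cldn18 followed at 4591 ± 1110. Clic5, at 2747 ± 420, and Aqp5, at 2680 ± 599, did not differ beyond their spread, and neither did Akap5 (1717 ± 378) and Pdpn (1465 ± 350). Rtkn2 was lowest, at 1210 ± 284, within the spread of Pdpn. In tumors the order was different. Rtkn2 had 162 ± 68.5 normalized counts per kilobase (SD, n = 7) and Ager 160 ± 61.6, while Cldn18 had 17.1 ± 29.7. Hopx was at 97.8 ± 103. Its SD exceeded its mean, as did those of Clic5 (33.4 ± 47.4) and Cldn18.

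The tumors differed among themselves by more than the normal lungs did in all 8 genes. This was not particular to them. Yap1 had a log2 SD of 1.14 over tumors and 0.06 over normal lungs, and Pecam1 0.97 and 0.09. Scnn1b went the other way, at 0.52 and 1.01. The share over all genes was not counted. On the log2 scale the SD over tumors was 0.48 for Akap5, 0.55 for Ager, 0.62 for Aqp5 and 0.63 for Rtkn2. It was 1.59 for Hopx, 2.26 for Clic5 and 3.47 for Cldn18, and that of Pdpn lay between these sets. Over normal lungs the SD was between 0.24 and 0.51. Tumor 3 was the lowest tumor for 3 genes (Hopx, Pdpn, Clic5) and tumor 5 the highest for 3 (Rtkn2, Akap5, Cldn18). Tumor 7 was the highest for Hopx, Pdpn and Clic5, and the lowest for Ager, Aqp5, Rtkn2 and Akap5.

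**Figure D2:**
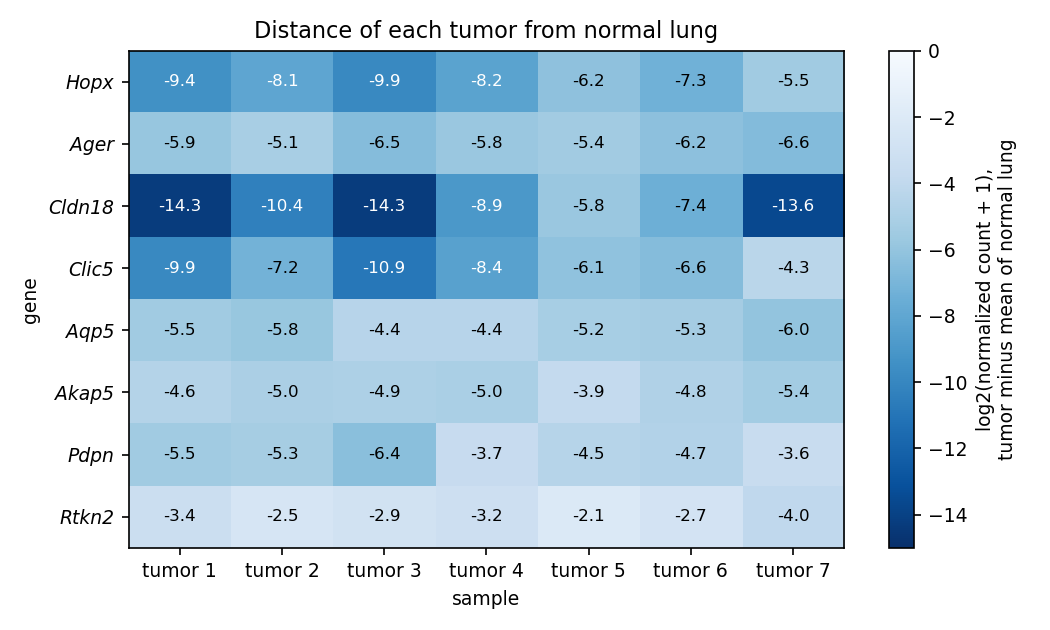
Each cell gives the log2(normalized count + 1) of 1 gene (rows) in 1 tumor (columns) minus the mean of the 5 normal lungs, with darker blue for a larger decrease. Cldn18 is at -14.3 in tumors 1 and 3 and -5.8 in tumor 5, and tumor 7 has the smallest decrease of Clic5 (-4.3) beside one of the larger decreases of Cldn18 (-13.6).

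Tumors that share a title number differed in some of these genes and were close in others. Whether they were more alike than tumors of different numbers was not tested. Within number 159, tumor 4 exceeded tumor 3 by 6.69-fold for Pdpn, 6.04-fold for Clic5 and 3.19-fold for Hopx. Cldn18 stood at 40.4 normalized counts in tumor 4 and 0 in tumor 3. Ager differed by 1.70-fold, while Aqp5 (1.02-fold), Akap5 (1.12-fold) and Rtkn2 (1.23-fold) were close. Within number 201 the highest of 3 tumors exceeded the lowest by 563-fold for Cldn18, where the lowest rests on 1 read, by 4.74-fold for Clic5 and by 2.13-fold to 3.83-fold for the other genes, Aqp5 excepted at 1.73-fold. Tumor 7 was the highest of these for Clic5 and the lowest for Cldn18.

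Markers of other cells were set beside these values, and their part in the spread of the type 1 genes was not tested. The 8 type 2 cell markers, Sftpc and Sftpa1 among them, had a median of 0.0506% of the normal lung mean in tumor 1, 0.368% in tumor 2, 0.0513% in tumor 3, 0.0981% in tumor 4, 1.36% in tumor 5, 0.637% in tumor 6 and 0.0584% in tumor 7. Cldn18 was at 0%, 0.0699%, 0%, 0.198%, 1.76%, 0.570% and 0.00313% in the same tumors. Tumors 5 and 6 were thus the highest in both, and tumors 1, 3 and 7 the lowest in both. All 8 type 2 markers were lower in tumor in limma and 7 of 8 in edgeR, beside 30.1% and 26.3% of all genes tested. Their median change was -9.49, and their summed level was 194096 to 262979 in normal lung and 893 to 3347 in tumors. Sftpa1 was listed at 0 in tumor 7. The markers did not all fall so far. The highest of the 8 in each tumor was at 101% of its normal lung mean in tumor 7 and 16.3% to 42.0% in the others. Groups did not overlap in 7 of the 8, against 18.4% of all genes with tumor lower.

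Clic5, Hopx and Pdpn were highest in tumor 7, where markers of several other tissues were highest too. The median of 10 endothelial markers was 10.8% of the normal lung mean there and 1.76% to 6.35% in the other tumors. Clic5 was at 4.96% in tumor 7 and 0.0493% to 1.39% in the others, and Hopx at 2.09% against 0.0975% to 1.28%. Tumor 5 was the next highest for both genes, with an endothelial median of 3.79%. Tumor 2 had an endothelial median of 6.35%, with Clic5 at 0.667%. By summed level the endothelial markers were highest in tumor 1 (7732, against 7652 in tumor 7), where Clic5 was at 0.0997%. The 4 measured heart muscle markers had a median of 1958% in tumor 7 and 3.85% to 198% in the others, with 19.1% in tumor 5. Myh6 (heart muscle myosin) had 18022 normalized counts in tumor 7 and 0 in tumor 3. Of the 4 mesothelial markers the median was 60.3% in tumor 7 and 33.1% in tumor 4, the tumors with most Pdpn, and 0.298% to 21.8% in the others. Tumor 5 had more Pdpn than tumor 6 (4.41% against 3.82%), with a mesothelial median of 1.35% against 21.8%. The median of 4 lymphatic markers was highest in tumor 2 (62.4%), where Pdpn was at 2.51%. It was 61.3% in tumor 7, 23.0% in tumor 4 and 10.1% to 35.0% in the others. The summed mesothelial level was 796 to 2379 in normal lung and 6.94 to 1010 in tumors, and Upk3b was at 0 in tumor 3. Without tumor 7 the changes of Clic5 and Hopx were -8.17 and -8.18.

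**Figure D3:**
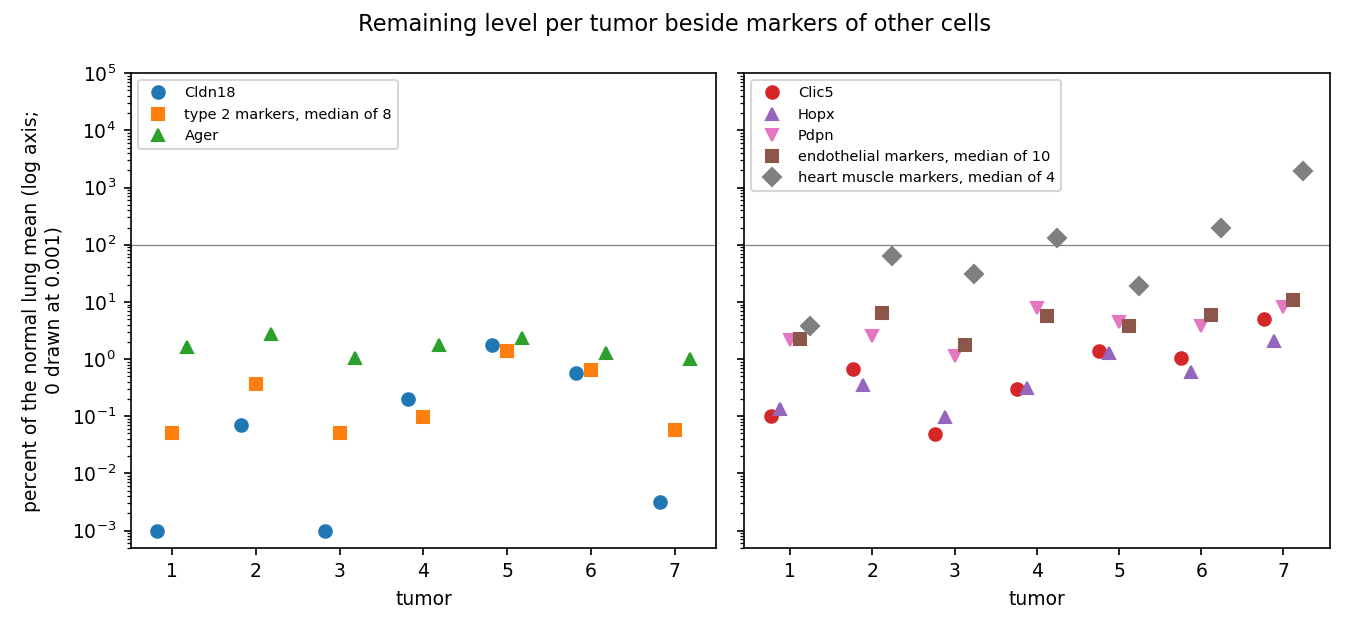
Level in each tumor as a percent of the normal lung mean, on a log axis with 0 drawn at 0.001 and a grey line at 100. The left panel shows Cldn18, the median of 8 type 2 markers and Ager, which stays between 1.01% and 2.72%; the right panel shows Clic5, Hopx, Pdpn and the medians of endothelial and heart muscle markers, all of them highest in tumor 7.

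Among the normal lungs, normal lung 3 was the lowest for 8 of the 8 genes and normal lung 4 the highest for 5 (Ager, Hopx, Pdpn, Aqp5 and Cldn18). The median of the 8 genes was 73.2% of the group mean in normal lung 3 and 136% in normal lung 4. In normal lung 3 the type 2 markers had a median of 105% and the endothelial markers of 96.3%, the leukocyte markers 136% and the lymphatic markers 172%. Their part in its low type 1 values was not tested. Leaving normal lung 3 out moved the change of Rtkn2 from -2.97 to -3.14 and ended no call.

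Other genes used as type 1 markers were lower in tumor in 10 of 11 tested, with a median change of -4.83 (30.1% of all genes tested were lower in limma). The largest decrease was that of Ndnf, a secreted factor with neurotrophic activity, from 5180 ± 664 (SD, n = 5) to 52.9 ± 73.5 normalized counts (SD, n = 7), with 0 in tumor 3 and 190 in tumor 7. The exception was Spock2, a testican proteoglycan of the extracellular matrix, at 14355 ± 4420 and 10085 ± 3013 normalized counts, whose change of -0.52 (SE 0.25, limma adjusted p = 0.0841) missed the threshold. Without tumor 3 the Spock2 change was -0.63 and passed it (limma adjusted p = 0.0384).

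Of 6 regulators of type 1 fate, 4 were lower in tumor and 0 higher in limma, with a median change of -1.84, where 30.1% of all genes were lower. In edgeR 3 of 6 were lower, where 26.3% of all genes were. Wwtr1 (Taz), the Hippo pathway co-activator, fell by 3.78 on the log2 scale (SE 0.40, limma adjusted p = 2.99e-06), and Yap1 by 4.50. Both were highest in tumor 7, at 964 and 721 normalized counts. Tead1, their DNA-binding partner, stood at 4857 ± 1010 normalized counts (SD, n = 5) in normal samples and 4752 ± 1087 (SD, n = 7) in tumor samples (change -0.04, SE 0.18, limma adjusted p = 0.870), with a sign that turned under several settings. Nkx2-1, the lung lineage factor, was not lower either. Normal samples stood at 8160 ± 696 normalized counts (SD, n = 5) and tumor samples at 11784 ± 3511 (SD, n = 7), with a change of 0.45 (SE 0.25, limma adjusted p = 0.133). Nkx2-1 was above the highest normal lung in 6 of the 7 tumors and at 4566 in tumor 7, and without tumor 7 its change was 0.66 (limma adjusted p = 3.32e-04). Nkx2-1 was also called higher with same-numbered tumors averaged (0.52, limma adjusted p = 0.00584), with quantile normalization (0.95, limma adjusted p = 0.00592), with equal totals (0.66, limma adjusted p = 0.0313) and without the trachea-titled tumors (0.69, limma adjusted p = 6.28e-04).

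**Figure D4:**
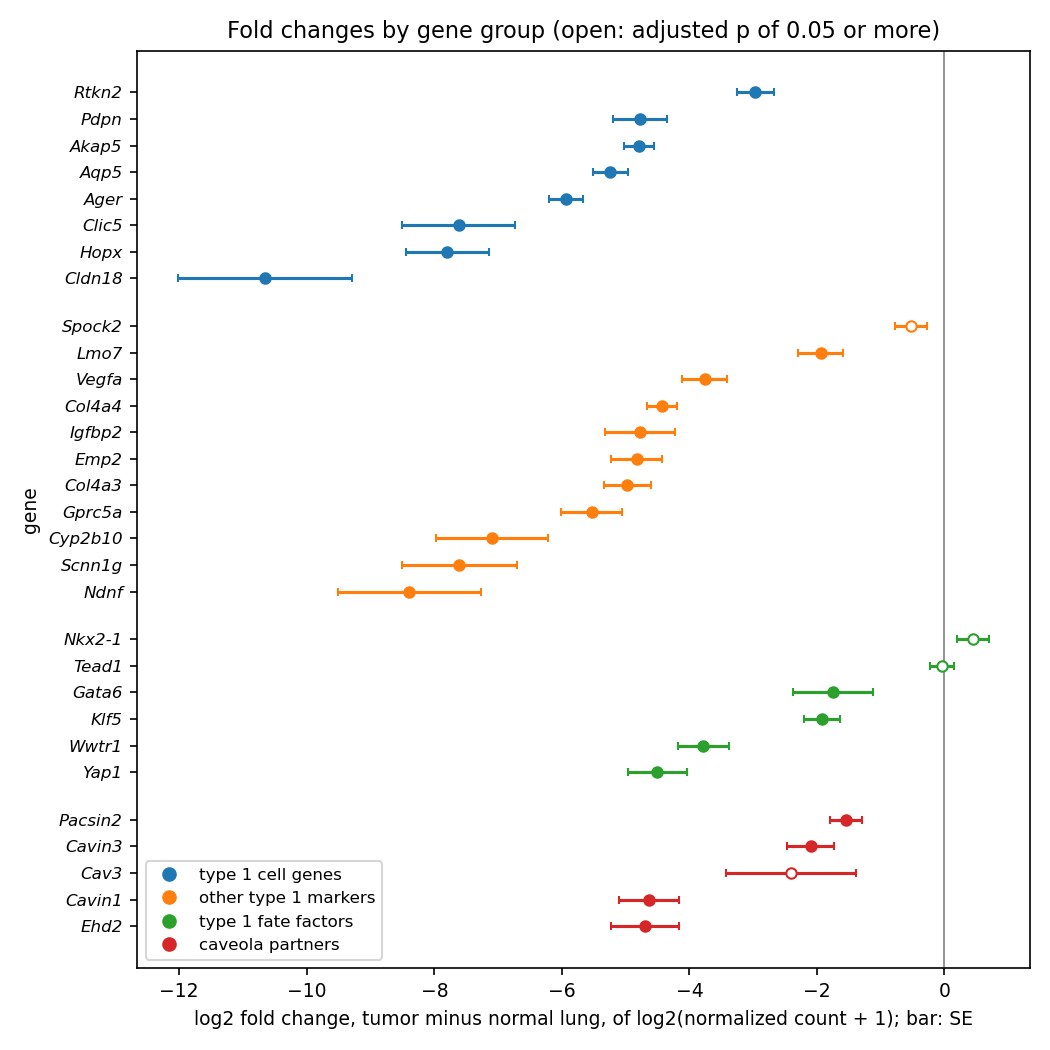
Log2 fold change (tumor minus normal lung, horizontal axis, bars are SE) of the 8 type 1 genes, 11 other type 1 markers, 6 fate regulators and 5 caveola partners; open circles missed an adjusted p of 0.05. Spock2, Tead1, Nkx2-1 and Cav3 are the open circles, and Cldn18 lies farthest to the left at -10.66.

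Genes of the keratin-rich state through which type 2 cells pass on the way to type 1 cells were lower in 9 of 9 in limma, with a median change of -3.24, and in 5 of 9 in edgeR. Of all genes tested, 30.1% were lower in limma and 26.3% in edgeR. Tumor and normal lung did not overlap in 5 of the 9, against 18.4% of all genes with tumor lower. In tumor 1 the keratins Krt8 and Krt7 stood at 208% and 205% of the normal lung mean, and in tumor 7 Clu (clusterin) stood at 178% and Lgals3 (galectin-3) at 116.7%. Itgb6, an integrin subunit that activates TGF-beta, changed most, by -6.48 (SE 0.59, limma adjusted p = 6.58e-07). Krt7 changed least, by -1.95 (SE 0.71, limma adjusted p = 0.0284), and edgeR did not call it (-0.82). The Krt7 call was also lost with same-numbered tumors averaged (-1.59, limma adjusted p = 0.0857) or treated as correlated (-1.85, limma adjusted p = 0.0569). Salt and water transport genes of the alveolar wall were lower in 5 of 5 in limma and 3 of 4 tested in edgeR. The shares of all genes were the same 30.1% and 26.3%. Cftr, the chloride channel, had the largest decrease, at -6.02 (SE 0.37, limma adjusted p = 1.88e-08).

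Partners of caveolae, the membrane pits built by Cav1 and Cav2, were lower in 4 of 5 tested, with a median change of -2.41. In limma 30.1% of all genes tested were lower. Ehd2, which stabilizes the neck of the pit, changed by -4.70 (SE 0.53, limma adjusted p = 5.32e-06) and Pacsin2 by -1.54 (SE 0.25). Cav3, the muscle caveolin, missed the threshold (-2.41, SE 1.02, limma adjusted p = 0.0536) and passed it without tumor 7 (-3.08) or without tumor 4 (-2.73).

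Ligands of the Ager receptor and its cytoplasmic partner Diaph1 moved in both directions, with 4 of 6 lower and 2 of 6 higher in limma. In edgeR 2 were lower and 2 higher. Among all genes, 30.1% were lower and 31.4% higher in limma, and 26.3% and 34.9% in edgeR. The share of these genes that was higher was near that of all genes. S100a9, a neutrophil protein, had the largest decrease (-6.27, SE 1.32), which edgeR did not call (-1.67). In tumor 2 S100a9 stood at 2847 normalized counts, above the highest normal lung (2501), and S100a8, its partner, at 1296 against at most 1009. S100b, at a mean of 18.5 normalized counts in tumors, rose by 1.18 on the log2 scale (SE 0.29, limma adjusted p = 0.00313), and Hmgb1, a chromatin protein that is also released from cells, by 0.58 (SE 0.15, limma adjusted p = 0.00522). Hmgb1 shares exon bases with Uspl1 on the opposite strand, and since the use of strand is not stated its count is uncertain. The same holds for Krt7, Krt8, Prox1 and Myh6, which share exon bases with opposite-strand genes.

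Family relatives of the type 1 genes were lower in 8 of 11 tested and higher in 0 in limma, with a median change of -1.92, and lower in 7 of 11 in edgeR. Among all genes, 30.1% were lower and 31.4% higher in limma, and 26.3% were lower in edgeR. Aqp1, the water channel of endothelium, fell by 4.80 on the log2 scale (SE 0.43, limma adjusted p = 5.87e-07). Aqp4 (0.77, SE 0.69), Aqp3 (-1.71, SE 0.78) and Clic1 (0.30, SE 0.21) missed the threshold. Leaving out tumor 1 or tumor 4 brought Aqp3 past it (-2.02 and -2.12). Aqp4 was called higher in DESeq2 (1.62, adjusted p = 0.0385) and Clic1 with equal totals (0.51, limma adjusted p = 0.0363).

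For the tissues that surround type 1 cells, the counts of lower genes in limma were 10 of 10 endothelial markers, 5 of 5 markers of the capillary cell that faces type 1 cells, 3 of 4 lymphatic, 3 of 4 mesothelial, 2 of 5 fibroblast, 4 of 6 club cell and gland, 6 of 6 leukocyte and 0 of 4 heart muscle markers. EdgeR called 9, 5, 2, 2, 2, 3, 2 and 0 markers lower in the same lists. Of all genes 30.1% were lower in limma and 26.3% in edgeR, and the shares for fibroblast markers and for leukocyte markers in edgeR were near these. The summed endothelial level was 74014 to 85519 in normal lung and 3245 to 7732 in tumors, and no endothelial marker was at 0 in every tumor. The leukocyte sum was 82847 to 162534 and 332 to 12557. The fibroblast sum was 22432 to 39798 and 3388 to 21366. Prox1, used here as a lymphatic marker, was higher in tumor (6.55, SE 0.43), and it is also a factor of neuroendocrine cells.

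Tumors with the word for trachea in their titles (1 and 7) were compared with those with the word for lung (3, 4, 5 and 6). In limma over 23282 genes, 0 of the 8 type 1 genes and 0 of all genes (0.0%) had an adjusted p under 0.05, while 2086 genes (8.96%) had an unadjusted p under 0.05. Without tumor 1, that number was 4789 of 23321. Among the 8 genes Rtkn2 was 1 such gene, at 624.8 and 410 normalized counts in tumors 1 and 7 against 1033 ± 375 in the lung-titled tumors (SD, n = 4), a change of -0.96 (SE 0.36, limma adjusted p = 0.513). Cldn18 had the largest difference, -4.83 (SE 2.13, limma adjusted p = 0.569), at 0 and 0.640 against 129 ± 162. The count tests left out tumor 3, the lung-titled tumor with 0 Cldn18 reads, and so set tumors 1 and 7 against tumors 4, 5 and 6. DESeq2, which called 128 genes lower (0.7%) and 172 higher (0.941%) over 18280 genes, called Cldn18 lower (-8.998, adjusted p = 1.23e-04), whereas edgeR called 0 genes, with 1407 at an unadjusted p under 0.05. Hopx, Clic5 and Pdpn were low in tumor 1 and high in tumor 7, so the trachea-titled tumors did not share a level of these genes.

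Genes close to the mean course of the 8 type 1 genes over the 7 tumors were sought among 16246 genes. Closeness was the root mean square difference from the mean tumor-centred log2 profile of the type 1 genes. The mean was not scaled by spread, so Cldn18 and Clic5, with log2 SDs of 3.47 and 2.26 over tumors, weigh most in it. That profile was lowest in tumor 3 (-1.29) and tumor 1 (-1.08) and highest in tumor 5 (1.33). The closest were Cemip (0.35), Rmi2 (0.37), Capn12 (0.37), Pgbd1 (0.40), 1810019N24Rik (0.40) and Elfn1 (0.42). The type 1 genes themselves were farther from their own mean, from 0.73 for Pdpn to 2.47 for Cldn18. Of the 6 closest genes, Cemip (2.22), Rmi2 (3.63) and Capn12 (1.59) were higher in tumor than in normal lung, and Elfn1 (-5.07) was lower.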

How the data were processed

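Gene expression was measured by poly-A selected RNA sequencing on an Illumina NovaSeq in 5 normal lungs and 7 tumors, per the labels' protocols. The authors deposited a normalized count signal per gene. The submitters' processing notes name featureCounts, DESeq2 and the build GRCm39, and give no versions, strand setting or annotation. In every column 100% of values were whole multiples, within 0.01, of the worth of 1 read, from which depth was recovered (size factors 0.619 to 1.58). The 25 same-group pairs of libraries compared on recovered reads all differed by more than sampling noise, with a ratio of chi-square to degrees of freedom of at least 18.4.

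Symbols came from GENCODE M21 (build GRCm38), which named 29982 of 30399 identifiers and left 417 unnamed. No coordinates were taken for the expression data, because the builds differ. Promoter windows came from RefSeq (build GRCm38.p6).

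Tests used limma 3.58.1 (R 4.3.3; trended eBayes, Benjamini-Hochberg) on log2(value + 1), for genes whose mean reached 1, and log2 changes are on that scale, which understates ratios at low values, unless edgeR or DESeq2 is named. limma averages log values and the count models average counts, and Cldn18, Clic5 and Hopx, which spread most over tumors, had larger changes in limma. The count models also lacked tumor 3. Without it limma gave -10.06, -7.08 and -7.45 for these genes, against -10.66, -7.62 and -7.80 on all samples. A call is an adjusted p under 0.05. The alternatives were edgeR 4.0.16 (TMM factors) and DESeq2 1.42.0 on the recovered reads of 11 samples, since the step of tumor 3 is too near 1 for the recovery to be checked. Further alternatives changed the scaling, pseudocount, filter and samples. The procedure was tested on simulated data with 22974 genes. Both groups were drawn from the normal lung means, with a single spread for all genes, the median of the normal lungs. The tumors spread more in all 8 type 1 genes, so the rates that follow hold for normal lung spread only. For tumor against normal lung, limma recovered 80% of 2-fold, 87.5% of 4-fold and 97.1% of 8-fold changes, and 20 of its 197 calls were false. That share of false calls was above the 0.05 that the adjusted p is meant to hold. For trachea-titled against lung-titled tumors it recovered 56.9%, 82.2% and 89.9%, with 1 false call of 156. Members and gene lists were chosen with earlier results of these data known. Named genes are the 8 measured members, the largest and smallest change of a list or the genes that missed its call, markers that define a cell type, and the 6 genes nearest to the members' profile. Wwtr1, Sftpc, Upk3b, Diaph1, Krt8, Clu, Lgals3 and S100a8 were named outside that rule. Of the 118 further listed genes, 111 were in the table. Figures were drawn with matplotlib 3.10.9.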

Additional observations from a re-analysis of the deposited data

Results flagged for a closer look

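Within normal lung and within tumors, each of the 8 type 1 genes was searched for a sample that stood apart from its group on the log2 scale by Dixon's ratio at the 95% limit. Of 16 groups of values, 2 had such a sample, where chance gives about 0.8. Both were normal lung 3, the lowest normal lung for 8 of the 8 genes. The groups share samples, so these 2 are not independent and no excess over chance is read from them. Rtkn2 in normal lung 3 had a log2 value of 11.98, against 12.73 to 12.99 in the other normal lungs. Clic5 in normal lung 3 had a log2 value of 14.12, against 14.60 to 14.73.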

How the results depend on the processing

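All 8 type 1 genes were lower in tumor under each of 24 alternatives (192 of 192 values; largest adjusted p 4.12e-04, Cldn18 in edgeR). Scaling to equal totals moved the median change of all genes by 0.19, and edgeR by 0.10. Over other alternatives the count of all genes lower in tumor ran from 4821 (edgeR) to 7574 (without tumor 7). Counts of lower genes moved by over 1.5 times in edgeR for the transitional list (9 to 5), leukocyte markers (6 to 2), Ager partners (4 to 2) and transport genes (5 to 3, with 4 tested), and in DESeq2 for leukocyte markers (6 to 3), Ager partners (4 to 2) and mesothelial markers (3 to 1). Smaller drops in edgeR, by 1 gene each, were those of fate regulators, family relatives, type 2, endothelial, lymphatic, mesothelial and club cell markers. For 32 other named genes, 720 of 766 values kept direction and call. Tead1 turned from -0.04 to 0.13 (quantile normalization), 0.17 (equal totals), 0.0764 (edgeR), 0.0235 (DESeq2) and 0.0874 (without the trachea-titled tumors), and ranged from -0.140 to 0.0466 with single samples left out, above 0 without normal lung 1, normal lung 5 or tumor 1. Myh6 turned from -1.89 to 2.20 in edgeR. For trachea-titled against lung-titled tumors, 0 calls became 10 lower and 82 higher with no filter, and 128 and 172 in DESeq2. Leaving out single tumors gave 0 to 216 lower and 0 to 74 higher, the highest without tumor 7, where tumor 1 alone stands for the trachea and is assumed to vary like the others. The causes were not tested. No paired analysis was possible because replicate numbers were given in listing order and title numbers are not shared between normal lung and tumor. At these depths, values under 3 reads, as of Cldn18 in tumors 1, 3 and 7, cannot be ranked.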
